A study of Mus musculus with 4 samples.

Results

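The genes described here are 140 transcripts whose ischemic over healthy ratios were the lowest shared by both brain regions, core and penumbra, 6 h after a stroke was induced in mice. They were chosen from the deposited series table of log10 ratios. A probe qualified when it targeted a RefSeq mRNA, had a median signal of at least 200 in both dyes on all 4 arrays, and had an ischemic over healthy ratio below 0 on all 4. The brightest such probe stood for each gene, and the 150 genes with the lowest mean over the 4 arrays were kept. Of these, 10 were left out because their symbols began with prefixes of ion channel, glutamate and GABA receptor, solute carrier, synaptotagmin, collagen or laminin families. The prefix for collagens also removed Colec11, which is a collectin and not a collagen. The 140 members stand among 10706 genes with a probe past the signal floor, and 135 of them could be named, while 5 kept only an accession.

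Brain tissue came from male C57BL/6J mice aged 9 weeks in which a filament had permanently blocked the middle cerebral artery (PMCAO). Every group received 1 µl of saline into the cerebral ventricles straight after the occlusion, so the ischemic and the healthy pieces both carry that label. The groups were ischemic core, healthy core, ischemic penumbra and healthy penumbra, cut out with a scalpel. Each of the 4 two-color arrays carried an ischemic piece in one dye and the corresponding healthy piece in the other, with core on replicates 1 and 2 and penumbra on replicates 3 and 4. The second array of each region had the dyes swapped. The labels give 3 mice per group without saying whether they were pooled, where the healthy pieces came from, or whether paired arrays read separate RNA extracts. Each dye-swapped pair was therefore counted as 1 replicate, and every SD below is between the 2 arrays of a pair and includes dye bias. No p-value is given for any gene's ischemic over healthy ratio, and counts from a fit with p-values are an alternative only.

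When an artery is blocked, flow falls most in the core territory, and collateral vessels keep some supply in the surrounding penumbra. In the first hours transcription shifts toward immediate early, heat shock and chemokine genes, and a transcript can become scarcer because it is made more slowly, because it is degraded, or because the cells that carried it are lost. In pieces of bulk tissue, fewer cells of a type and less RNA per cell cannot be told apart. The genes below do not form one known pathway. They include lipid enzymes, neuropeptide receptors, Wnt receptors, enzymes that attach sugars to dystroglycan, and proteins of DNA replication and repair.

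The ratios that chose the members were shallow. In the series table their means over the 4 arrays, converted to log2, ran between -0.80 and -0.36 with a median of -0.41, beside a median of -0.03 over all genes. Upward ratios went much further: the gene at rank 150 from the top had a mean of 0.60 and the highest gene a mean of 4.40, and 72 genes above 0 on all 4 arrays had a mean at least as far from 0 as that of the lowest member. At the bound, the last genes taken were 2410002F23Rik, Zfp60 (a zinc finger protein) and Lrrc3b (a leucine-rich repeat protein), each at -0.36. The first genes not taken were Gata2 (a zinc finger transcription factor), B3galt4 (a galactosyltransferase) and Pgap3 (a factor in GPI anchor processing), also each at -0.36. Nothing separates the 2 sides, so the list ends at an arbitrary point of a continuous distribution. Among all 14574 probes past the floor, 24.4% were below 0 on all 4 arrays and 17.1% were above 0 on all 4.

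All ratios from here on are log2 ischemic over healthy after background correction and intensity-dependent (loess) normalization of the scanner signals, relative to the bulk of genes. In the core the members had a median of -0.29, which is 18.2% lower in ischemic tissue, with single genes between -0.74 and -0.05. All genes had a core median of -0.00. In the penumbra the members had a median of -0.40, which is 24.0% lower, with a range of -0.77 to -0.16, beside -0.01 for all genes. The medians on the single arrays were -0.27 and -0.34 for core and -0.34 and -0.43 for penumbra. The same values put 133 of the 140 members below 0 on all 4 arrays, against 18.3% of all genes, and the rule used these ratios in another normalization, so this share is not a separate result. The median SD between paired arrays was 0.12 in core and 0.10 in penumbra tissue. All 140 members were well above background in both dyes on all 4 arrays. Their probes were dim, with a median log2 signal of 9.73 against 11.4 for all genes, and 61 members had a signal under 400 in some channel.

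**Figure D1:**
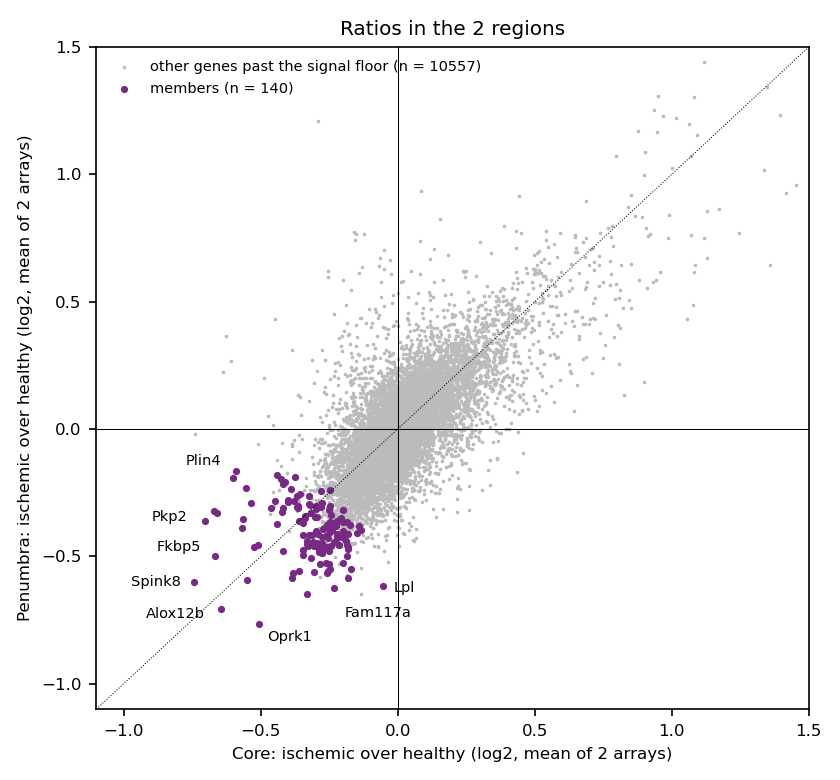
Mean log2 ischemic over healthy ratio in the core (x axis) against that in the penumbra (y axis), each the mean of 2 dye-swapped arrays, for the 140 members (purple) and the other genes past the signal floor (grey). The members occupy the lower left, between -0.74 and -0.05 in the core and between -0.77 and -0.16 in the penumbra, and most lie below the dotted line of equal ratios. Outside the axes lie 27 genes.

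A gene was called lower when its ratio was at least 1.5-fold lower in the mean of a pair and at least 1.2-fold lower on each array. In the core 8 of the 140 members met this, and over all genes 0.112% did. They were Spink8, Pkp2, Lrg1, Fkbp5, Sult1a1, Alox12b, Tekt4 and Plin4. In the penumbra 9 members met it, and over all genes 0.0935% did. They were Oprk1, Alox12b, Mrps25, Fam117a, Lpl, Spink8, Pla2g4e, Elmod1 and Klhl36. Alox12b and Spink8 were called in both regions, and over all genes 0.0187% were called in both. No gene met a stricter rule of 2-fold lower in the mean and 1.5-fold on each array in either region, while 1.47% of genes were called higher by the 1.5-fold rule in core tissue and 1.5% in penumbra tissue; a 2-fold rule gave 0.458% and 0.383%. Scaling to spike-in control transcripts turned this split: 18.3% of all genes were then called lower in the core and 0.43% higher, and 25.5% lower in the penumbra and 0.365% higher. Processed signals gave 14 members lower in the core and 18 in the penumbra, against 0.196% of all genes in each region, and median centring gave 18 in the penumbra, also against 0.196%. Because the members were chosen on these ratios, the counts describe them and test nothing. Several calls ended when 1 array was left out. Without core replicate 2 the core value of Alox12b was -0.41, and without core replicate 1 that of Sult1a1 was -0.58. Without penumbra replicate 4 the penumbra values were -0.47 for Alox12b, -0.57 for Pla2g4e, -0.34 for Mrps25, -0.29 for Klhl36 and -0.47 for Elmod1, and none of these 5 was called any longer. Pla2g4e and Sult1a1 missed the 1.5-fold bound only narrowly. Leaving out core replicate 1 gave 15 calls in the core, against 0.785% of all genes, and leaving out penumbra replicate 3 gave 33 in the penumbra, against 1.45%.

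Of the 12 lowest members, 3 encode enzymes or regulators of lipid metabolism. Alox12b, the 12R-lipoxygenase known for building the lipid barrier of the skin, had ratios of -0.41 and -0.88 in the core and -0.47 and -0.95 in the penumbra. Its means were -0.65 ± 0.33 and -0.71 ± 0.34 (SD, 2 arrays), so it had the lowest 4-array mean in the series table but a wide gap between the arrays of each pair. Pla2g4e, a calcium-dependent N-acyltransferase of the cytosolic phospholipase A2 family that makes precursors of endocannabinoid-type lipids, had -0.53 and -0.57 in the core and -0.57 and -0.61 in the penumbra. Its 4 values lay within a narrow band, with means of -0.55 ± 0.02 and -0.59 ± 0.03. The processed signals of its probe were 674 and 739 in ischemic core, against 1032 and 1099 in healthy core, and 237 and 270 in ischemic penumbra, against 381 and 449 in healthy penumbra. The ischemic and healthy signals did not overlap within either region, and signal was higher in core than in penumbra on both sides. The rule had required the ischemic signal to be the lower on each array, so that lack of overlap is a description only. Abhd15, an alpha/beta hydrolase protein that restrains lipolysis in adipocytes, had -0.78 and -0.35 in the core and -0.48 and -0.29 in the penumbra.

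Oprk1 encodes the kappa opioid receptor, the inhibitory G protein-coupled receptor for dynorphins. Its ratios were -0.57 and -0.44 in the core and -0.85 and -0.68 in the penumbra, where its mean of -0.77 ± 0.12 was the lowest of any member. Its processed signals were 297 and 323 in ischemic core against 479 and 447 in healthy core, and 294 and 356 in ischemic penumbra against 577 and 646 in healthy penumbra. Both ischemic signals were below both healthy signals in each region, and the 2 penumbra ratios were below the 2 core ratios. Fkbp5, which encodes the Hsp90 co-chaperone FKBP51 of steroid receptor complexes and is itself a classic target of the glucocorticoid receptor, had -0.71 and -0.62 in the core and -0.58 and -0.42 in the penumbra. Its processed signals were 784 and 837 in ischemic core against 1360 and 1270 in healthy core. In ischemic penumbra they were 814 and 1056, against 1263 and 1489 in healthy penumbra, again with no overlap. For Oprk1 and Fkbp5 too, the rule had required the lower ischemic signal on each array, so the lack of overlap tests nothing.

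The other 7 of the lowest 12 have unrelated roles. Spink8, a member of the Kazal-type serine protease inhibitor family, had -0.64 and -0.85 in the core and -0.60 and -0.60 in the penumbra, and its core mean of -0.74 ± 0.14 was the lowest of any member. Pkp2, the desmosomal plaque protein plakophilin 2, had -0.60 and -0.81 in the core and -0.39 and -0.33 in the penumbra. Lrg1, a secreted leucine-rich glycoprotein that modulates TGF-beta signalling in vessels, had -0.61 and -0.73 in the core and -0.28 and -0.37 in the penumbra. For both, the core arrays lay below the penumbra arrays without overlap. Kirrel2, an adhesion protein of the nephrin-like family, had means of -0.51 ± 0.11 in core and -0.45 ± 0.05 in penumbra tissue. A dimmer other probe of Kirrel2 had only -0.09 in each region. Cbx2, a Polycomb subunit that binds methylated histone H3, had -0.31 and -0.74 in the core and -0.21 and -0.72 in the penumbra. Mrps25, a protein of the small mitochondrial ribosomal subunit, had -0.14 and -0.53 in the core and -0.34 and -0.96 in the penumbra. Klhl36, a Kelch-family protein, had -0.13 and -0.64 in the core and -0.29 and -0.88 in the penumbra. In the last 3 genes one dye orientation was far lower than the other in both regions.

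**Figure D2:**
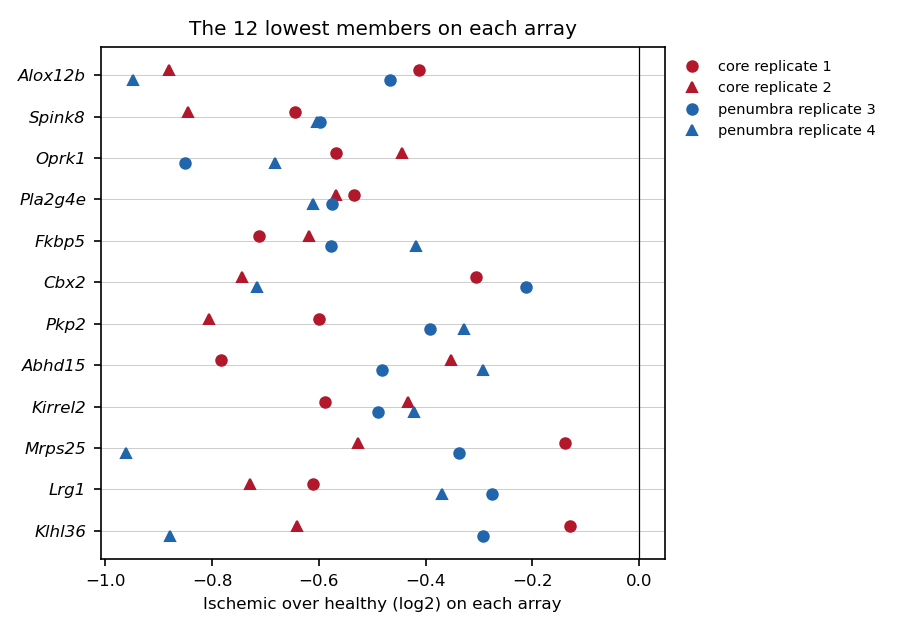
Log2 ischemic over healthy ratio (x axis) of the 12 members with the lowest 4-array means (rows), with core arrays in red and penumbra arrays in blue, and circles for replicates 1 and 3 and triangles for replicates 2 and 4. All values are below 0; the values of Pla2g4e lie between -0.61 and -0.53, while those of Alox12b, Cbx2, Mrps25 and Klhl36 split by dye orientation.

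That split is common to many members. Replicates 1 and 3 had ischemic RNA in Cy5, and replicates 2 and 4 had it in Cy3. The ratio was lower on both of replicates 2 and 4 than on their partners for 72 members, and lower on both of replicates 1 and 3 for 38. Over all genes the counts were 4447 and 4533 of 10697. A gap over 0.3 log2 in the same orientation in both regions was found in 22 members toward replicates 2 and 4 and in 1, Xdh (xanthine dehydrogenase), toward replicates 1 and 3, whereas over all genes the counts were 830 and 766. Together these are 16.4% of the members and 14.9% of all genes, and the members' gaps ran almost all one way. The widest was Rhob, a small GTPase, with -0.02 and -0.65 in the core and 0.02 and -0.90 in the penumbra. A dye effect that adds the same amount on the log scale cancels in the mean of a swapped pair. The part of dye in the single low values was not tested.

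Promoter windows were at hand for 105 members. Those of the 4 lowest members that have one are shown, taken from RefSeq on build GRCm38.p6, from 250 bases before to 50 bases after the annotated start, 5' to 3' on the gene's strand. Alox12b lies on the plus strand at chr11:69156822-69157121, Pla2g4e on the minus strand at chr2:120245286-120245585, Fkbp5 on the minus strand at chr17:28486100-28486399 and Abhd15 on the plus strand at chr11:77514867-77515166. Capitals mark matches, on either strand, to CACGTG (the E-box), TGACGTCA (the full cyclic AMP response element), TTATGTAA (the D-box), CCAAT (the motif bound by NF-Y), TATAAA (the TATA box) or CGGAAG (an ETS-type core).
Alox12b: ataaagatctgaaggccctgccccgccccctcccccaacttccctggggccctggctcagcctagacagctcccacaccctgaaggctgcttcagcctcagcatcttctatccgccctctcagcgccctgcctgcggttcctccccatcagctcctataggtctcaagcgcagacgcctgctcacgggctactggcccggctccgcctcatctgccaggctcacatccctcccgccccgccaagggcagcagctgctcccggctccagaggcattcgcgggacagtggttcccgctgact
Pla2g4e: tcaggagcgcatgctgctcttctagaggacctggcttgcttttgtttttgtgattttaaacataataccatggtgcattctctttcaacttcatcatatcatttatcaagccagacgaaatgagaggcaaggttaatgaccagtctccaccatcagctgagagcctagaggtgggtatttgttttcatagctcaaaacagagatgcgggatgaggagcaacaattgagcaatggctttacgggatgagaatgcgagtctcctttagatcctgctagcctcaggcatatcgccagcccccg
Fkbp5: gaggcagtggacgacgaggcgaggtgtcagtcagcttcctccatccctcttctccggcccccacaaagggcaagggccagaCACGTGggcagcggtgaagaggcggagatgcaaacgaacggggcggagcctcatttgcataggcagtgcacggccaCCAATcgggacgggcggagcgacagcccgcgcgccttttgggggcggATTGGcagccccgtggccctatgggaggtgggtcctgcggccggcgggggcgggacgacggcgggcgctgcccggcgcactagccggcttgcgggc
Abhd15: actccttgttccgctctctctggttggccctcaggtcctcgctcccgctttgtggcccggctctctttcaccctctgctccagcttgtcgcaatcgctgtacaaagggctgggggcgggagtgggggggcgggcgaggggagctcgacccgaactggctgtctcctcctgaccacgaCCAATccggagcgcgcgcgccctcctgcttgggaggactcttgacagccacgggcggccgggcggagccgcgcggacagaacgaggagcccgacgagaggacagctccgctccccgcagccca
The Fkbp5 window holds CACGTG once and CCAAT on each strand, the Abhd15 window holds CCAAT once, and the other 2 windows hold none of the 6 motifs. Over the 105 members, CACGTG was present in 9.52% of windows against 10.3% of 8435 windows of all genes, and CCAAT in 35.2% against 38.9%. TATAAA was present in 11.4% against 7.24%, TGACGTCA in 1.90% against 3.28%, and TTATGTAA in 0 members against 0.474%. CGGAAG was present in 18.1% against 31.2%. Windows of the members had a median GC content of 60% against 61% and a median CpG observed over expected ratio of 0.70 against 0.77, and 63.8% against 73.2% had a ratio of at least 0.6. These are descriptions of the windows and do not show binding.

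The array carries further probes for some of these genes that the rule did not take, which are separate spots reading the same labelled RNA. Of 58 such probes measured, for 47 member genes, 49 were below 0 in both regions, which is 84.5% against 39.5% of 29939 measured probes of all kinds. On all 4 arrays 32 were below 0, which is 55.2% against 17.5%. Their ratios were smaller than those of the members' own probes: the medians were -0.16 in core and -0.17 in penumbra tissue, against -0.28 and -0.39 for the probes the rule took for the same genes. The 2 sets of values had a Pearson correlation of 0.44 in core and 0.14 in penumbra tissue over 58 probes, which share their arrays and RNA, and some share a gene. Of the 58, 12 were brighter than the probe taken. The rule passed these over because their ratios were not below 0 on every array, so it shaped the shares above. For 129 of the 140 members the probe taken was the brightest of the gene past the floor.

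Several genes gave nearly the same ratio from a second probe. Lpl had -0.12 in core and -0.56 in penumbra tissue on its other probe, beside -0.05 and -0.62 on the one the rule took. On this brighter other probe the core arrays lay apart, at 0.10 and -0.34, and the penumbra arrays were -0.41 and -0.72. Elmod1, a GTPase-activating protein for Arf-family GTPases, had -0.18 and -0.60 beside -0.18 and -0.59. C2, a component of the classical and lectin complement pathways, had -0.54 and -0.25 beside -0.55 and -0.23. Ubl7, a ubiquitin-like domain protein, had -0.28 and -0.56 beside -0.20 and -0.53. The arrays of its other probe lay apart, at 0.05 and -0.62 in the core and -0.19 and -0.93 in the penumbra. Both other probes of Fkbp5 were below 0 in both regions, but their ratios were smaller than those of the rule's probe. They had -0.46 and -0.45 in the core, against -0.67, and -0.07 and -0.22 in the penumbra, against -0.50. C2 and Fkbp5 were picked for this paragraph after their values were seen.

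For 9 genes another probe had a mean above 0 in at least 1 region, and there the 2 probes disagree. Mrps25 had 0.09 in core and 0.23 in penumbra tissue on its brighter other probe, against -0.33 and -0.65. Mtch2, an insertase of the outer mitochondrial membrane, had 0.03 and 0.01 against -0.26 and -0.38. Lrrn3, a leucine-rich repeat membrane protein of neurons, had -0.29 and 0.11 against -0.38 and -0.19, and Fzd7 had -0.02 and 0.12 against -0.39 and -0.23. Abhd15 had 0.00 and -0.08, against -0.57 and -0.39. Zfp60 had 0.04 and -0.03, against -0.13 and -0.40. The remaining 3 genes had several other probes: those of Pik3r1, a regulatory subunit of PI3 kinase, lay between -0.14 and 0.07, those of Ppp1r9a (neurabin, a scaffold of dendritic spines) between -0.11 and 0.04, and those of Scai, a repressor of the cofactor MAL, between -0.30 and 0.01. Alox12b, although lowest by its chosen probe, had only -0.13 in core and -0.09 in penumbra tissue on its other probe.

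**Figure D3:**
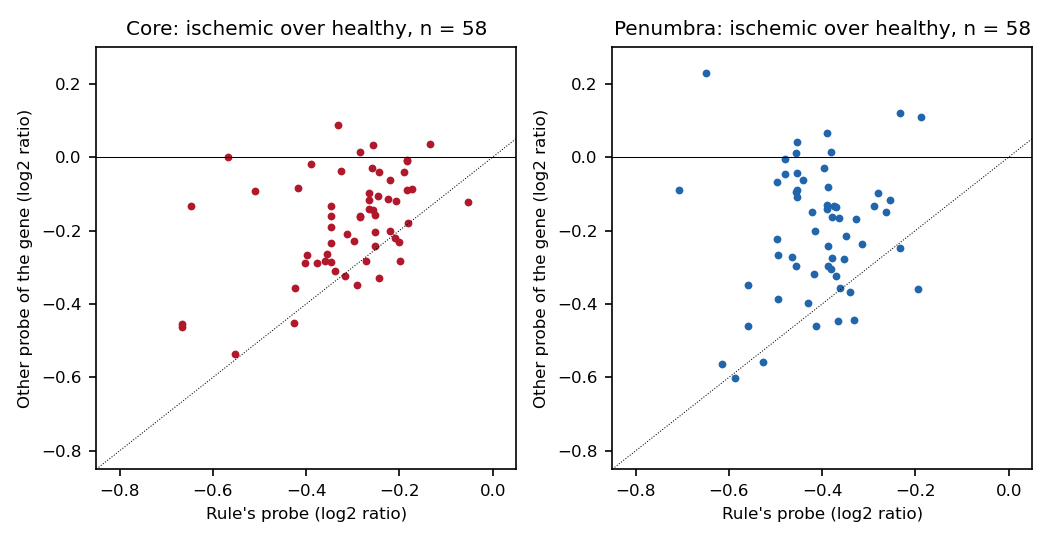
Mean log2 ischemic over healthy ratio of 58 probes that the rule did not take (y axis) against that of the probe it took for the same gene (x axis), in the core (left) and the penumbra (right); the dotted line marks equal ratios. Most points are below 0, with medians of -0.16 in core and -0.17 in penumbra tissue, and most lie above the dotted line.

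Among receptors, 3 members came from 62 measured orphan, peptide and adhesion G protein-coupled receptors. The group had medians of 0.00 in core and -0.03 in penumbra tissue. On all 4 arrays 13 of its genes were below 0, against 18.3% of all genes, and 13 were above 0. Beside Oprk1 the members were Oprl1 and Npy5r. Oprl1, the nociceptin receptor, had -0.54 and -0.30 in the core and -0.60 and -0.36 in the penumbra. Npy5r, a neuropeptide Y receptor, had -0.05 and -0.32 in the core and -0.26 and -0.47 in the penumbra. A second probe of Oprl1 had -0.08 in core and -0.05 in penumbra tissue. Of the 6 measured opioid-system genes, both measured receptors were members, while the peptide precursors were not: Penk had 0.42 in core and 0.11 in penumbra tissue, Pdyn had 0.05 and 0.18, Pnoc had 0.06 and 0.13, and Pomc had -0.03 and 0.07. Penk makes enkephalins, Pdyn the dynorphins that bind the kappa receptor, and Pnoc the nociceptin that binds Oprl1. This list, like those of dystroglycan, glucocorticoid-responsive, DNA replication, fatty acid and TAM receptor genes below, was drawn up after members' values were seen. Among 23 aminergic, cholinergic, purinergic and lipid receptors 1 was a member, the alpha-2C adrenergic receptor Adra2c, with -0.26 ± 0.20 in core and -0.56 ± 0.18 in penumbra tissue.

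The Wnt, Bmp and Tgf-beta list held 3 members of 59 genes, with list medians of 0.07 in both regions. On all 4 arrays 21 of its genes were above 0 and 6 below 0, so the members ran against most of their list. Fzd2, a Wnt receptor, had -0.76 and -0.37 in the core and -0.40 and -0.31 in the penumbra. The related receptor Fzd7 had means of -0.39 ± 0.13 and -0.23 ± 0.14, and the ligand Wnt4 had -0.25 ± 0.12 and -0.40 ± 0.09. Notch4, a Notch receptor of endothelium, had -0.42 ± 0.01 in core and -0.31 ± 0.09 in penumbra tissue and was the 1 member among 18 Notch-pathway genes.

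Of 17 measured genes for alpha-dystroglycan and its glycosylation, the sugar modification by which dystroglycan anchors cells to laminin and that is defective in dystroglycanopathies, 3 were members, and 0 were called by size in either region. Pomk, the kinase that phosphorylates the core mannose glycan, had -0.30 and -0.27 in the core and -0.53 and -0.53 in the penumbra. Both penumbra values lay below both core values. The list had medians of -0.06 in core and -0.16 in penumbra tissue. On all 4 arrays 8 of its 17 genes were below 0, against 18.3% of all genes, and 3 were above 0. The 2 highest were Dpm3, a subunit of dolichol-phosphate mannose synthase, at 0.38 and 0.45, and Gmppb, which makes GDP-mannose, at 0.32 and 0.31.

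Fatty acid handling gave 9 members among 56 measured genes. The list as a whole had medians of -0.07 in core and -0.01 in penumbra tissue, with 20 genes below 0 and 10 above 0 on all 4 arrays. Plin4, a perilipin that coats lipid droplets, had -0.60 and -0.59 in the core and -0.22 and -0.11 in the penumbra. Lpl, the lipase that releases fatty acids from lipoproteins, had -0.14 and 0.04 in the core and -0.64 and -0.59 in the penumbra. These 2 genes went opposite ways between the regions. Ppara, the nuclear receptor that drives fatty acid oxidation genes, had -0.41 ± 0.12 in core and -0.21 ± 0.16 in penumbra tissue. Hacd2, a dehydratase of very long chain fatty acid elongation, had -0.37 ± 0.18 and -0.26 ± 0.03. Acot5, a peroxisomal acyl-CoA thioesterase, had -0.28 ± 0.19 and -0.29 ± 0.09, and Them6, a thioesterase superfamily protein, had -0.20 ± 0.13 and -0.43 ± 0.04.

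Glucocorticoid-responsive genes did not move together. Of 18 measured, the members were Fkbp5, Plin4, Sult1a1 (a phenol sulfotransferase) and Sgk3 (a kinase related to Sgk1). Sult1a1 had -0.74 and -0.58 in the core and -0.37 and -0.29 in the penumbra. Yet Per1 had 0.57 in core and 0.56 in penumbra tissue, Pdk4 had 0.59 and 0.28, Errfi1 had 0.59 and 0.38, and Tsc22d3 (GILZ) had -0.14 and -0.03. The list medians were 0.05 in core and -0.05 in penumbra tissue. DNA replication and repair contributed 6 members of 48. Orc5 of the origin recognition complex, the flap endonuclease Fen1, the histone chaperone subunit Chaf1a, the replication stress protein Etaa1 and the Fanconi anaemia helicase Fancm were among them. All 6 had small ratios, between -0.25 and -0.20 in the core and between -0.44 and -0.24 in the penumbra, in a list with medians of -0.04 and -0.03, and 0 of the 48 were called.

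**Figure D4:**
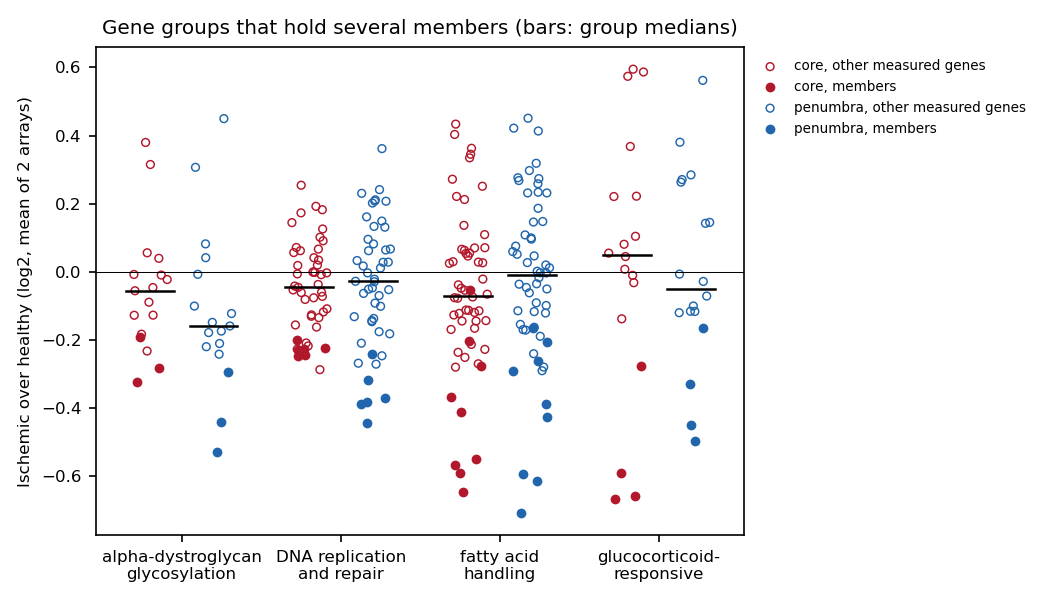
Mean log2 ischemic over healthy ratio (y axis) of every measured gene of 4 gene groups, core (red) left of penumbra (blue), with members filled, other genes open and a bar at each group's median. The glucocorticoid-responsive group spreads on both sides of 0, with Fkbp5, Sult1a1 and Plin4 at -0.67, -0.66 and -0.59 in the core and Per1, Pdk4 and Errfi1 between 0.57 and 0.59.

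Zinc finger proteins of the Zfp, Zbtb, Zkscan and Zscan families were the list with the most members, 11 of 261 or 4.21%, against 1.31% of all genes. The list medians were -0.03 in core and -0.07 in penumbra tissue, with 73 genes below 0 and 50 above 0 on all 4 arrays. Many proteins of these families are DNA-binding transcriptional repressors. Zfp641 had -0.29 ± 0.03 in core and -0.48 ± 0.14 in penumbra tissue, and Zfp296 had -0.29 ± 0.05 and -0.41 ± 0.12. Zfp423, a transcription factor of cerebellar and adipocyte development, had 0.11 on penumbra replicate 3 and -0.62 on penumbra replicate 4, so its mean of -0.25 ± 0.52 was smaller than its SD. Small GTPases and their regulators held 4 members of 209, among them Arl5c at -0.19 ± 0.11 and -0.50 ± 0.15, Rasl10a at -0.29 ± 0.02 and -0.45 ± 0.08, and the Rab11 effector Rab11fip2 at -0.33 ± 0.17 and -0.45 ± 0.17. RING finger proteins and ubiquitin ligase adaptors held 5 of 223, among them Kctd8, an auxiliary subunit of GABA-B receptors, at -0.33 ± 0.04 and -0.46 ± 0.04, and Rnf135, the RING ligase that activates RIG-I, at -0.42 ± 0.05 and -0.21 ± 0.09. Chromatin regulators held 2 of 71, Cbx2 and the PHD finger protein Phf7, which had -0.25 ± 0.07 and -0.32 ± 0.09. Of 52 leucine-rich and neurexin-binding synaptic organizers 2 were members, Lrrn3 and Lrrn2, and Lrrn2 had -0.27 ± 0.11 and -0.47 ± 0.02.

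Dbp, the D-box-binding transcription factor of the circadian output, had processed signals of 23517 and 26398 in ischemic core against 34438 and 30029 in healthy core. Its ratios were -0.50 and -0.21 in the core and -0.44 and -0.28 in the penumbra. Its relatives Tef and Hlf had -0.15 and -0.13 in the core and -0.26 and -0.20 in the penumbra, whereas Per2 had 0.88 and 0.59, and the D-box repressor Nfil3 had 1.59 in the penumbra. Dbp was the 1 member among 17 clock genes. Mertk, a receptor tyrosine kinase for the uptake of dying cells, had -0.38 and -0.35 in the core and -0.32 and -0.28 in the penumbra, while the other TAM receptors had -0.12 and -0.13 (Axl) and 0.12 and -0.01 (Tyro3). Dbp and Mertk were chosen for description after their values were seen.

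Markers of cell types were counted among the members, which are 1.31% of all genes. Markers of oligodendrocytes (15 measured), neurons (17), interneurons (14), endothelium (17) and leukocytes (4) included 0 members. Beside so small a share, 0 members in lists this short shows little about these cell types. Neuron markers had medians of 0.02 in core and -0.10 in penumbra tissue, and oligodendrocyte markers had 0.22 and 0.15. Homeostatic microglia markers included 1 of 16, Tmem119, with -0.45 and -0.44 in the core and -0.19 and -0.17 in the penumbra. The microglial receptor P2ry12 had -0.04 and 0.27, and the list medians were -0.00 and 0.04. Astrocyte markers included Fzd2 alone of 16, with list medians of -0.09 and 0.02, and Cspg4 (NG2) was the 1 member of both the precursor list of 7 and the pericyte list of 12, at -0.32 ± 0.12 and -0.30 ± 0.03. Leukocyte markers had medians of 2.25 in core and 1.66 in penumbra tissue, with all 4 above 0 on every array. Medians also differed between regions in other lists that hold 0 members. The 12 meningeal fibroblast markers had medians of -0.20 in the core, with 1 called lower, and 0.33 in the penumbra. The 5 choroid plexus and ependymal markers had -0.01 and 0.54. The part of cell composition in the members' ratios was not tested.

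Ratios were lower in the penumbra than in the core for 103 members and lower in the core for 37, and the median core minus penumbra difference was 0.12, against 0.02 for all genes. The rule shaped this order too, since it ranked genes by the mean over both regions and low ratios reached further in the penumbra: the lowest 5% of all genes lay at or below -0.20 in core tissue and at or below -0.29 in penumbra tissue. The share lower in the penumbra was 73.6% of members, against 56.5% of all genes. Both penumbra arrays lay below both core arrays in 46 members, against 15.9% of all genes, and the reverse held for 18 members, against 11.8%. Only 1 member, Lpl, differed by at least 0.5 log2 with no overlap between the regions' arrays, at 0.56 higher in the core. Of all genes 0.215% differed that way, while 0.617% were lower in the core by the same rule. On the brighter other probe of Lpl the means of -0.12 and -0.56 were less than 0.5 log2 apart, so the call did not hold there. A limma fit over the 4 arrays, with a dye coefficient and p-values for the spread among arrays alone, found a difference at an adjusted p below 0.05 for 30 members, or 21.4%, against 6.59% of all probes. Those probes were not limited to genes past the signal floor, and the rule shaped the members' share. Leaving out penumbra replicate 3 raised the size rule's count to 7, against 2.54% of all genes in either direction, and leaving out core replicate 2 raised it to 3, against 2.14%.

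The processed signals of Lpl were 508 and 595 in ischemic core against 580 and 599 in healthy core, and 779 and 854 in ischemic penumbra against 1219 and 1329 in healthy penumbra. The core signals of both tissues were close, while in the penumbra the ischemic signals were well below the healthy ones. Next came Elmod1, with -0.09 and -0.28 in the core and -0.47 and -0.70 in the penumbra, and Fam117a, with -0.21 and -0.25 in the core and -0.64 and -0.61 in the penumbra. Spag6, a protein of the central apparatus of motile cilia, had -0.17 ± 0.17 in core and -0.55 ± 0.17 in penumbra tissue, and Ubl7 had -0.20 ± 0.28 and -0.53 ± 0.47. The penumbra arrays of Ubl7 were -0.20 and -0.86, so they overlapped with its core arrays of -0.00 and -0.40. In the other direction Plin4 had a core minus penumbra difference of -0.43 and Tekt4, a tektin of ciliary and flagellar microtubules, one of -0.41, with -0.60 and -0.60 in the core and -0.21 and -0.17 in the penumbra. Lrg1 followed at -0.35, Pkp2 at -0.34 and Sult1a1 at -0.33, all without overlap between the regions' arrays.

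**Figure D5:**
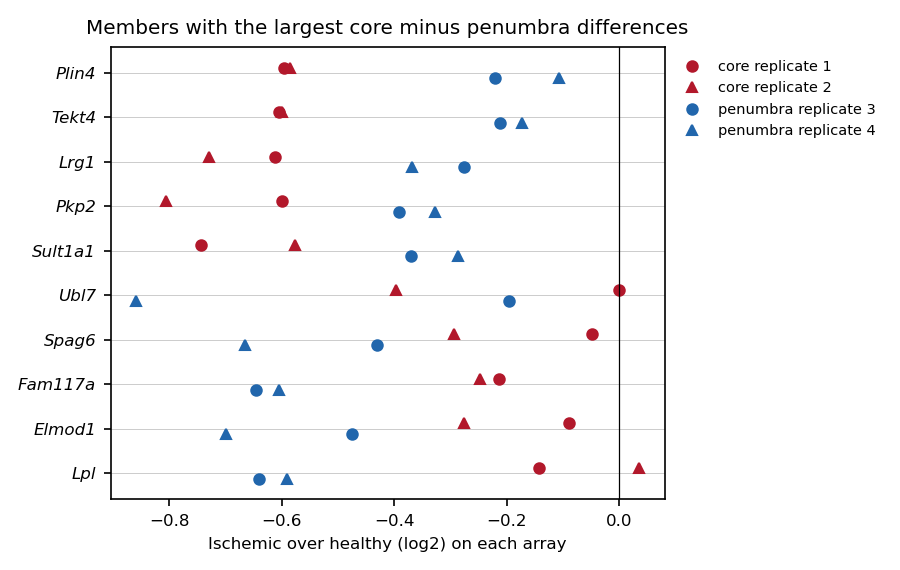
Log2 ischemic over healthy ratio on each array (x axis) for the 5 members lowest in core relative to penumbra (upper rows) and the 5 lowest in penumbra relative to core (lower rows), with core arrays in red and penumbra arrays in blue. The upper 5 have core values between -0.81 and -0.58 and penumbra values between -0.39 and -0.11; Lpl at the bottom has -0.14 and 0.04 in the core and -0.64 and -0.59 in the penumbra.

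The healthy pieces themselves differed for some members. Healthy core over healthy penumbra, compared within each dye, was at least 1.5-fold apart for 22 members, 12 higher and 10 lower in healthy core, against 2.13% and 2.74% of all genes. Lrg1 had a log2 difference of 1.42 ± 0.18 (SD between dyes) and Pla2g4e one of 1.39 ± 0.04, both higher in healthy core. Tmprss6, the membrane protease that restrains hepcidin in the liver, had -1.76 ± 0.11, and Fam117a had -1.37 ± 0.17. Lpl had -1.04 ± 0.02, so its transcript was scarcer in healthy core, where its ischemic ratio was near 0. In ischemic core over ischemic penumbra 19 members were called, 12 higher and 7 lower, against 2.61% and 3.18% of all genes. The difference of Lpl was then -0.48 ± 0.11, and that of Pla2g4e was 1.43 ± 0.04. For 117 members the healthy pieces were within 0.5 log2 of each other.

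Some features lay apart from the rule. The members' genes spanned a median of 17138 bases of genome, against 23151 for all genes. On GRCm38.p6, 11.9% of the 135 named members were on chromosome 11, against 8.52% of all genes. Chromosome 9 held 10.4%, against 5.88%, and chromosome 17 held 8.89%, against 4.80%. Others held less than their share, such as chromosome 3 with 0.741%, against 4.73%, and chromosome 4 with 2.22%, against 6.14%. The counts were small, at 16 members on chromosome 11 and 1 on chromosome 3. On chromosome 17 were Fkbp5 at chr17:28398753-28486149, Plin4 at chr17:56100587-56109948 and Lrg1 at chr17:56119678-56121946. Plin4 and Lrg1 thus lie close together, and both were lower in the core than in the penumbra. Oprk1 is at chr1:5588450-5606134, Lpl at chr8:68880555-68906932 and Spink8 at chr9:109812203-109826628. Signal, unlike these features, was part of the rule. Many members were dim, though their log2 signals ran from 8.22 to 15.3. Among genes no brighter than the members' median, 0.77% had a ratio of -0.3 or lower in both regions, against 0.395% of brighter genes, and such genes made up 0.477% of all genes. Of these 51 genes 45 were members, as the rule would select them.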

How the data were processed

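The 4 arrays were of Agilent's two-color type. The authors' deposited scanner files hold each spot's Cy3 and Cy5 intensity from Agilent Feature Extraction 11.0.1.1 (submitters' processing notes). The deposited series table holds log10 ratios, equal to the log10 of processed Cy5 over processed Cy3 signal to within 5e-06. Its sign was turned on core replicate 2 and penumbra replicate 4.

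Members were picked from that table by the rule given with the results. Median signals were corrected with normexp (offset 50) and normalized by loess in limma 3.58.1 (R 4.3.3), with control and outlier spots at weight 0. Signals of spots were medians, as the scanner files used here give them. Spots of a probe were averaged. Pieces were compared dye by dye on single-channel values, after loess followed by Aquantile. Gene names came from an accession table of GRCm38.p6, which matched 23360 of 24124 RefSeq mRNA probes. Python 3.11.15, pandas 2.3.3, numpy 2.4.6 and matplotlib 3.10.9 served for tables and figures. The fits were tested on simulated data.

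The median signal of an array was 192 to 225.5 (Cy3) or 284 to 310 (Cy5), 76.1% to 79.4% of spots stood well above background, and the number of arrays limits the precision. Calls rest on size: at least 1.5-fold in a pair's mean and 1.2-fold on each array, and, between regions, at least 0.5 log2 with no overlap of arrays. All genes means 10697 genes measured on every array. A limma fit over the 4 arrays with a dye coefficient was an alternative, whose p-values measure only the spread between arrays.

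The members and gene lists were chosen with earlier results of these data known. The text names the 12 lowest members, up to 3 members of each list holding at least 2, the 5 largest and 5 smallest core minus penumbra differences, the 3 genes on each side of the bound, members with another probe above 0, and the 4 that differ most between healthy pieces. Other named genes, and the members of the 6 lists drawn up later, were chosen after their values were seen. Values of a few members are not reported here.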

Additional observations from a re-analysis of the deposited data

Results flagged for a closer look

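A test of the difference between the regions, limma over the 4 arrays with a dye coefficient and Benjamini-Hochberg adjustment over 30843 probes, passed at an adjusted p below 0.05 for 30 of the 140 members, which is 21.4% against 6.59% of all probes. Their adjusted p-values ran from 0.000429 to 0.0491. They measure only the spread between arrays, since each region has 1 dye-swapped pair, and the same test passed for 8829 probes in the core and 13352 in the penumbra. Values are log2 core minus penumbra, and 1 of the 30 is not named.

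Of these, 7 were lower in the core: Plin4 at -0.43, Tekt4 at -0.41, Lrg1 at -0.35, Pkp2 at -0.34, Sult1a1 at -0.33, C2 at -0.32 and Tmem119 at -0.26.

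The other 23 were lower in the penumbra. Lpl stood first at 0.56, followed by Elmod1 at 0.40, Fam117a at 0.39, Spag6 at 0.38, Ubl7 at 0.33 and Mrps25 at 0.32. Arl5c, Psrc1 and Adra2c had 0.31 each, Cbr3 had 0.30, Gatd1 had 0.29, and Lrrc3b and Tmprss6 had 0.28 each. Ppp1r9a and Fam78a had 0.27 each, and Zfp60, Oprk1, Zfp709 and Ccl17 had 0.26 each. Pomk had 0.25, and Lmln and Plvap had 0.24 each. For Ubl7, Mrps25, Lrrc3b, Fam78a and Lmln the arrays of the 2 regions overlapped, and for the other 25 they did not; the fit's dye coefficient takes up the shift between dye orientations.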

How the results depend on the processing

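No called gene changed sign under processed signals, spike-in scaling or with 1 array left out, but none could. The rule required processed ratios below 0, spike-in scaling lowered every ratio, and a call required a low ratio on each array. Among uncalled values, single core arrays were not below 0 for Lpl (0.04, replicate 2), Zc3h6 and Galc (0.02 and 0.00, replicate 1). Single penumbra arrays were not below 0 for Zfp423, Rhob and Lrrn3 (0.11, 0.02 and 0.00, replicate 3) and Xdh (0.05, replicate 4). With processed signals the core median was -0.35 and the penumbra median -0.48, with 14 and 18 members called lower and 2 differing between regions. Median centring moved all genes in the penumbra to a median of -0.10, with a member median of -0.46 and 18 calls. It left 111 members below 0 on all 4 arrays, against 133 with loess. Scaling to spike-in control transcripts lowered every ratio by 0.475 in core and 0.463 in penumbra tissue, giving member medians of -0.76 and -0.86 and 139 and 140 calls, against 18.3% and 25.5% of all genes, whose medians moved to -0.48 in each region; 1 member still differed between regions. The 2-fold rule called 0 members in either region, by its stricter threshold. The limma fit called 139 in the core, 140 in the penumbra and 30 between regions, against 12.6% and 21.7% of probes lower and 6.59% different. Members were chosen as low on these same arrays, so the counts within regions describe them and test nothing. The rule shaped the count between regions too. Leaving out 1 array gave core medians of -0.34 to -0.27 with 11 to 15 calls, penumbra medians of -0.43 to -0.34 with 10 to 33 calls, and 1 to 7 members differing between regions, where calls then rest on 1 array. Calls between pieces stayed within 22 to 25 of the healthy and 19 to 28 of the ischemic comparison over the alternatives run. Membership itself moved more: 79 members remained with a floor of 400, 109 when loess ratios ranked the genes, 124 with the mean over probes, and 92 to 108 without 1 array. No paired analysis was possible because the core and penumbra arrays share no replicate number.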
